A study of Mus musculus with 6 samples.

Results

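Of 3093 long non-coding RNA (lncRNA) transcripts in the deposited table, 6 lay in Pde4d, the gene of a cAMP-specific phosphodiesterase. A transcript was counted to Pde4d where its deposited interval overlapped the GENCODE M21 gene body of Pde4d more than that of any other gene. RNA came from pancreatic islets of C57BL/6 mice in 2 groups of 3 libraries, 1 fed normal chow (NCD) for 8 weeks and 1 fed what the labels call a high-fed diet (HFD) for the same time. Both groups share strain and tissue, and no genetic change is named for either. The db/db mice of the series title were not analysed here. The table gives each transcript 1 value per diet in FPKM, a count of fragments scaled to transcript length and sequencing depth, and no value per library. No difference below therefore has a replicate check, a standard deviation or a p-value.

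Pde4d encodes an enzyme that breaks down cyclic AMP, the second messenger that glucagon-like peptide receptors raise in the beta cell and that strengthens insulin secretion through protein kinase A and the exchange factors of the Epac family. The gene is used through many alternative first exons, which give long forms carrying upstream regulatory regions and shorter forms that lack part or all of them. Phosphodiesterases of several families act in islets and limit how far cyclic AMP spreads in a cell. The deposited transcripts are lncRNA models inside the gene and not the Pde4d messenger RNA, whose level was not measured here.

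All 6 intervals lay in introns, touched no annotated exon and each had a locus identifier of its own. The gene runs on the forward strand of chromosome 13 from 108449948 to 109953461 (GRCm38), a length of 1503514 bases that ranks 16 among annotated protein-coding genes. Transcripts are named here by their distance from that gene start. In order along the gene, the transcript at 711 kb covers 109161203 to 109161621 (419 bases) and the transcript at 716 kb covers 109166037 to 109169262 (3226 bases). The transcript at 741 kb covers 109190523 to 109190916 (394 bases) and that at 779 kb covers 109228501 to 109228980 (480 bases). The transcript at 785 kb covers 109234629 to 109251481 (16853 bases) and that at 1324 kb covers 109774387 to 109787856 (13470 bases). Together they cover 34842 bases, 2.32% of the gene.

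The members were not spread evenly. The first 5 lay within 90279 bases, 6% of the gene, in the intron of 707689 bases between exons 3 and 4 of the long isoform Pde4d-209. The sixth followed 522905 bases later, in an intron of 130896 bases between exons 7 and 8 of Pde4d-209, and began 1706 bases after the end of exon 7. The ends of the coding exons that border these introns are printed because they mark between which exons the 6 transcripts lie. They come from the GENCODE M21 transcript sequence of Pde4d-209, 5′ to 3′ on the forward strand, and capitals mark the 9 bases next to the intron.
Exon 3 of Pde4d-209, chr13:109032638-109032697, before the first 5 members: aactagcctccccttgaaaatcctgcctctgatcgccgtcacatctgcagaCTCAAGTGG
Exon 4 of Pde4d-209, chr13:109740387-109740446, after the first 5 members: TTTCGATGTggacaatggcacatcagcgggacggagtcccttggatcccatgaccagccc
Exon 7 of Pde4d-209, chr13:109772631-109772680, before the sixth member: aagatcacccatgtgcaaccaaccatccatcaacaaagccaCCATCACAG
Exon 8 of Pde4d-209, chr13:109903577-109903636, after the sixth member: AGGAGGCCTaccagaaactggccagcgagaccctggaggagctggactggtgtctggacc

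The position of the members separated them by the isoforms that could contain them. Of the 20 annotated Pde4d transcripts, 5 hold the first 5 members in an intron, and 3 of these 5 are protein-coding (Pde4d-208, Pde4d-209 and Pde4d-220). A further 13 annotated transcripts, 9 of them protein-coding, start downstream of the fifth member. The sixth member lies in an intron of 8 protein-coding isoforms, among them the same 3. It is thus the one member that RNA from Pde4d forms starting downstream of the fifth member could also cover.

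The intron of the first 5 members contains 1 other annotated gene, the microRNA gene Mir582, whose hairpin lies 73 kb downstream of the fifth member. Its mature sequences are shown because Mir582 is the one other annotated gene that lies wholly in this intron. They come from RefSeq on GRCm38.p6, with the seed (bases 2 to 8) in capitals.
mmu-miR-582-5p: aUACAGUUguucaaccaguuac
mmu-miR-582-3p: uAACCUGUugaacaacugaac
The levels of these microRNAs were not measured in this table.

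**Figure D1:**
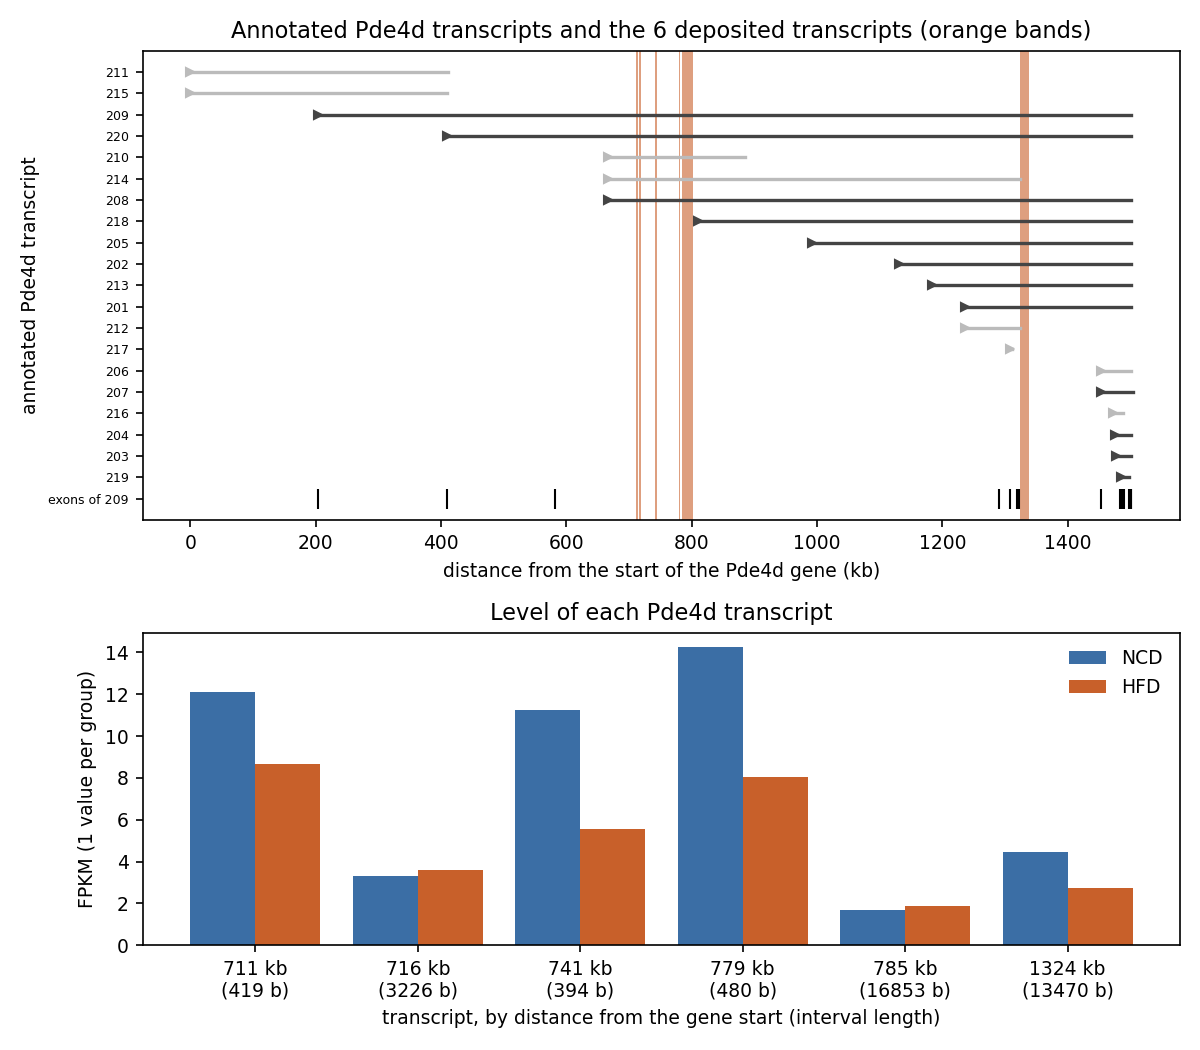
Top, distance from the start of Pde4d (kb) for the 20 annotated transcripts (dark lines protein-coding, pale lines other kinds, arrowheads their starts), the exons of Pde4d-209 (ticks) and the 6 deposited transcripts (orange bands, drawn at least 3 kb wide). Bottom, FPKM of each deposited transcript in NCD and HFD, 1 value per group: the short transcripts at 711, 741 and 779 kb stand above the other 3 in both diets.

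The 3 short members had the highest FPKM in both diets. The transcript at 711 kb had 12.1 FPKM in NCD against 8.68 in HFD. At 741 kb the NCD value was 11.2 FPKM and the HFD value 5.54. At 779 kb they were 14.2 and 8.05, the highest NCD level of the gene. All 3 were lower in HFD, and the order of those at 711 and 779 kb changed between the diets.

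The 3 long members had lower levels per length and did not share a direction. The transcript at 716 kb had 3.33 FPKM in NCD against 3.61 in HFD. That at 785 kb, the longest, was at 1.70 and 1.88 FPKM, the lowest of the 6 in both diets. The transcript at 1324 kb had 4.46 FPKM in NCD against 2.72 in HFD. HFD was thus slightly higher for the 2 long transcripts in the intron after exon 3 and lower for the one in the intron after exon 7. Summed over the 6, the NCD level was 47.1 FPKM and the HFD level 30.5.

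The ratio of diets was taken as log2 of (HFD FPKM + 0.1) over (NCD FPKM + 0.1). It was lowest at 741 kb (-1.01), followed by 779 kb (-0.81), 1324 kb (-0.69) and 711 kb (-0.47). It was above 0 at 716 kb (0.12) and at 785 kb (0.14). The median of the 6 was -0.58, a ratio of 0.667. The transcripts at 779 and 785 kb are separated by 5648 bases and those at 711 and 716 kb by 4415 bases, and in each of these neighbouring pairs the short transcript was lower in HFD and the long one slightly higher.

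By a size rule of at least 2-fold, 1 of the 6 members was lower in HFD and 0 were higher. Of all transcripts, 41.9% were at least 2-fold lower and 6.27% at least 2-fold higher. Among the intronic transcripts of protein-coding genes, the class of all 6 members, these shares were 50.1% and 4.18%. The 1 member past the rule, at 741 kb, lay just beyond the 2-fold limit, at a log2 ratio of -1.01, and the next, at 779 kb, did not reach it, at -0.81. At any size, 4 of the 6 were lower in HFD, where 80% of all transcripts and 87.1% of the intronic ones were. The other 2 were higher, where 20% of all transcripts and 12.9% of the intronic ones were.

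Read against the rest of the table, the Pde4d transcripts were placed toward the higher ratios. Over the 3093 transcripts the median log2 ratio was -0.82 and that of the 1884 other intronic transcripts of protein-coding genes -1.003. Of the 6 members, 5 lay above that median of all transcripts, as 50% of the table does, the one at 779 kb by less than 0.01. This count depends on the constant added to each FPKM (the pseudocount). With a pseudocount of 1 the median of all transcripts was -0.550. The members at 741 kb (-0.90), 779 kb (-0.75) and 1324 kb (-0.553) then lay below it. Those at 711 kb (-0.44), 716 kb (0.09) and 785 kb (0.09) lay above it, and the Pde4d median was -0.49. Among the other intronic transcripts, 89.1% had a lower log2 ratio than the member at 716 kb and 89.4% a lower one than the member at 785 kb. For the member at 741 kb that share was 49.8%. The direction of the gene's median therefore depends on the reference: it was below 0 as deposited and 0.24 after the table's median was subtracted. With 6 transcripts and 1 value per diet, this placement is a description of these 2 columns.

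Counting error was estimated from the low values of the table, which fall on steps of whole fragments. The totals fitted to these steps were 63.5 for NCD and 77.5 for HFD, in units of 1e6 fragments, and they apply only where a column comes from a single pool of fragments. On that basis the member at 711 kb stood for about 100.1 fragments in NCD and 91.7 in HFD. Its log2 ratio without the added 0.1 was -0.48, with an exact 95% counting interval of -0.90 to -0.06. At 741 kb about 75.6 and 48.0 fragments gave -1.02 with an interval of -1.57 to -0.48. At 779 kb about 172.7 and 123.0 fragments gave -0.82, with an interval of -1.17 to -0.48. The intervals of the 3 short members overlapped one another and lay below 0.

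The long members held more fragments if each is a single unspliced RNA, which the table does not say. At 716 kb about 620.4 fragments in NCD and 824.3 in HFD gave an interval of -0.03 to 0.27, which includes 0. At 785 kb the interval was 0.06 to 0.23 and at 1324 kb it was -0.78 to -0.64. The intervals at 716 and 785 kb did not overlap those of the other 4 members. The gap was narrow at 716 kb, whose interval began at -0.03, where that at 711 kb ended at -0.06. All of these intervals cover counting error in the 2 columns only and not variation between mice.

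**Figure D2:**
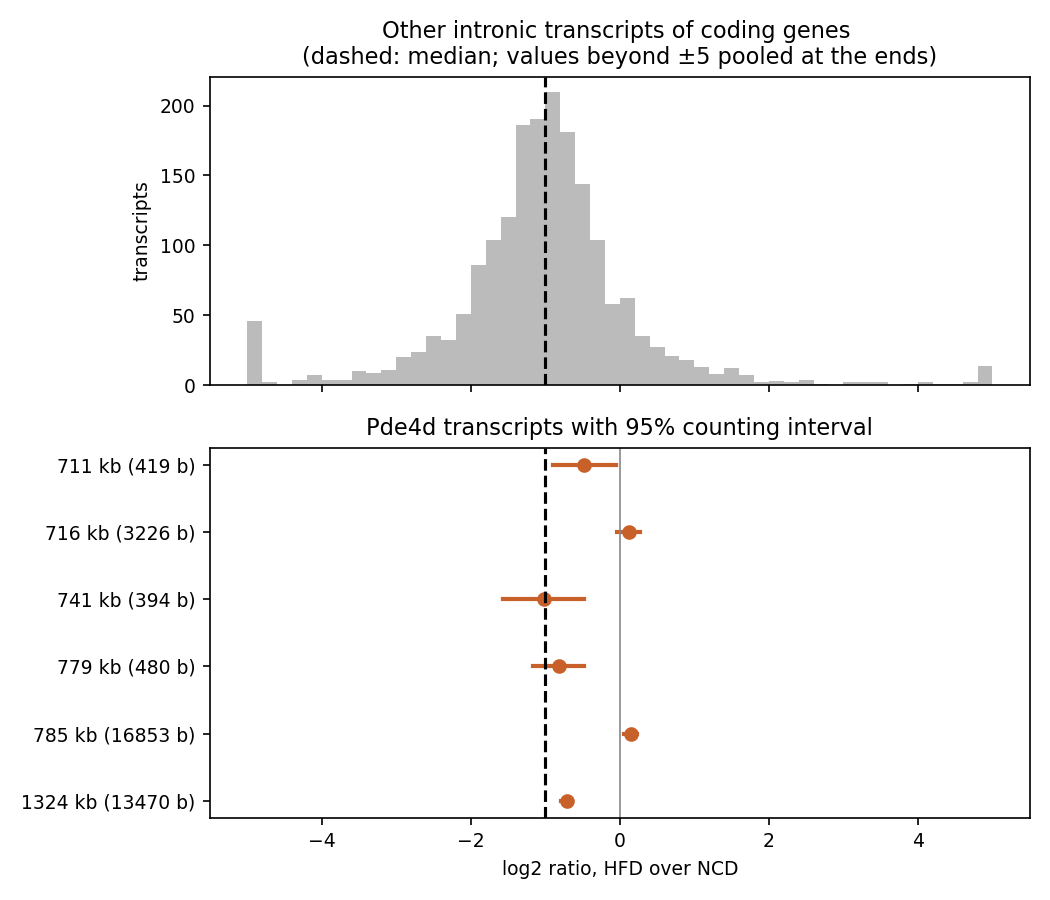
Top, number of other intronic transcripts of protein-coding genes by log2 ratio of HFD over NCD, with 0.1 added to each FPKM (dashed, their median of -1.003). Bottom, log2 ratio without the added 0.1 of each Pde4d transcript with its 95% counting interval: the transcripts at 716 and 785 kb lie to the right of the other 4.

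Among the other intronic transcripts of protein-coding genes, level and ratio differed between length classes. Those of 200 to under 500 bases had a median of 4.22 FPKM in NCD and 1.78 in HFD and a median log2 ratio of -1.21, whereas those of 5000 bases or more were at 2.53 and 1.48 FPKM with a median log2 ratio of -0.74. Levels were lowest in the class of 1000 to under 5000 bases, at 2.26 and 1.15 FPKM (log2 ratio -0.87), and those of 500 to under 1000 bases were at 2.73 and 1.24 FPKM (-1.07). The part of interval length in the contrast between short and long members was not tested. Set against intervals of their own length class, the 3 short members lay toward the high levels. In NCD, 87.6%, 85.6% and 90.6% of the other intronic transcripts under 500 bases were below the members at 711, 741 and 779 kb. In HFD these shares were 94.8%, 88.8% and 93.8%.

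The 2 long members in the intron after exon 3 moved up this order between the diets. Among other intronic transcripts of 1000 to under 5000 bases, 82.5% were below the member at 716 kb in NCD and 97% in HFD. Among those of 5000 bases or more, 14.9% were below the member at 785 kb in NCD and 67.4% in HFD. The member at 1324 kb kept its place, with 86.5% below it in NCD and 87.2% in HFD.

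**Figure D3:**
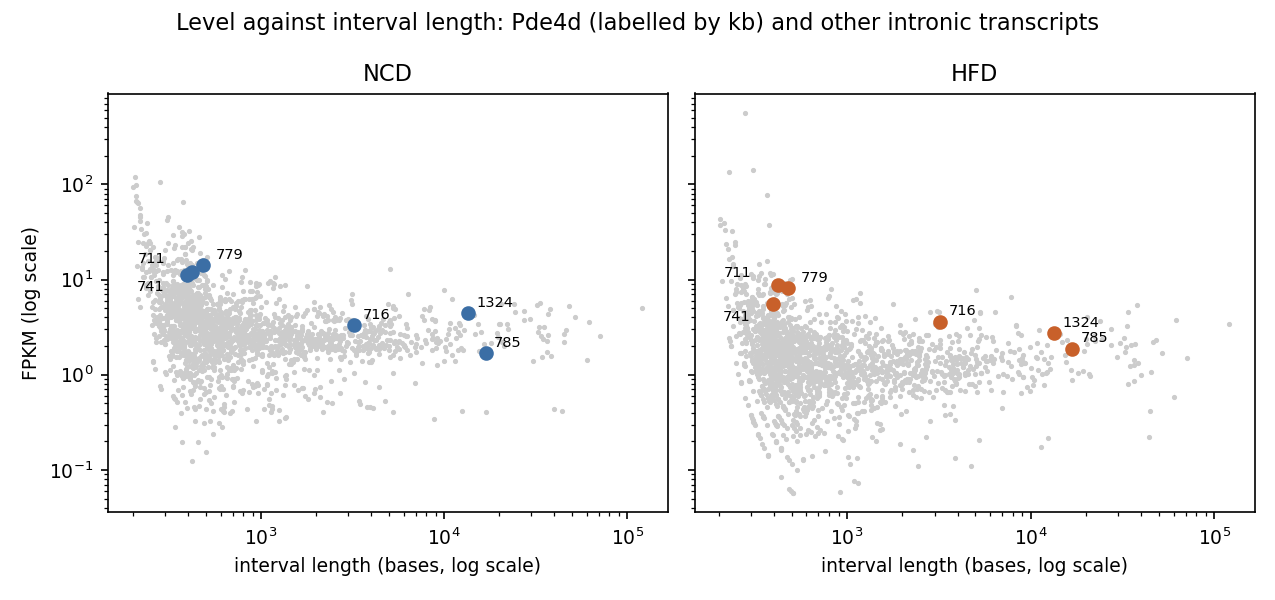
FPKM against interval length in bases, both on log scales, for the Pde4d transcripts (large points, labelled by kb from the gene start) and the other intronic transcripts of protein-coding genes above 0 (grey), in NCD (left) and HFD (right). The 3 short Pde4d transcripts lie between 11.2 and 14.2 FPKM in NCD and between 5.54 and 8.68 in HFD.

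The deposited file gives no strand, but its locus identifiers are numbered in an order that appears to follow it. On each of 20 chromosomes the locus numbers fall into 2 runs of increasing position, with 5 steps back among 3089 transcripts. For 57 transcripts that coincide with an annotated non-coding transcript over at least 80% of both, the annotated strand was forward in the first run or reverse in the second in 52 (91.2%). Read in this way, 1879 of 2054 intronic transcripts (91.5%) were on the strand of the gene that holds them. For transcripts that touched exons the share was lower, 148 of 193 (76.7%) over non-coding genes and 173 of 353 (49%) over protein-coding genes. All 6 Pde4d members stood in the first run, which is the strand of Pde4d. No source used here says that the numbering follows strand, so the strand is inferred from the order. On the same strand, a member cannot be told apart from unspliced Pde4d RNA with these data. The 6 members carry 6 of 10 consecutive locus numbers, and the other 4 numbers are not in the table.

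Compared with other long genes, Pde4d held transcripts of high level. The table has transcripts in 29 of the 59 protein-coding genes of at least 1 Mb, and 12 of them hold at least 5. Of the other 11, 2 had a higher median log2 ratio than Pde4d (Kcnip4, a potassium channel-interacting protein gene, at -0.09, and Ctnna2, a catenin gene, at -0.38) and 9 had a lower one. The 147 transcripts in the other genes of at least 1 Mb had a median log2 ratio of -1.24, and 60.5% were at least 2-fold lower in HFD. Their median levels were 2.59 FPKM in NCD and 1.06 in HFD, against 7.84 and 4.58 for the 6 Pde4d transcripts. The Pde4d medians depend on its 3 short intervals, and its members ranged from 1.70 to 14.2 FPKM in NCD. Single transcripts in the other long genes reached 66.9 FPKM in NCD and 10.8 in HFD.

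Among all 67 genes with at least 5 transcripts, the median HFD level of Pde4d was the highest, and its median NCD level ranked 4. The HFD median of Maml3, a Notch coactivator gene, was close at 4.49 FPKM, and without replicates it cannot be separated from that of Pde4d. Ppm1h, a phosphatase gene, had the highest NCD median, 12.4 FPKM, and was at 3.34 in HFD. These medians depend on how many short intervals a gene holds, and Pde4d holds 3 short ones of 6.

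By median log2 ratio alone, 10 of these genes lay above Pde4d and 56 below. The 3 closest were Mir99ahg, a microRNA host gene (-0.61, 7 transcripts), Hnf4g, a nuclear receptor gene (-0.62, 6 transcripts), and Meis1, a homeobox gene (-0.55, 6 transcripts). This likeness is the difference of 1 median over 2 diet groups. Their levels were unlike that of Pde4d, with NCD medians of 1.01, 2.27 and 2.76 FPKM.

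**Figure D4:**
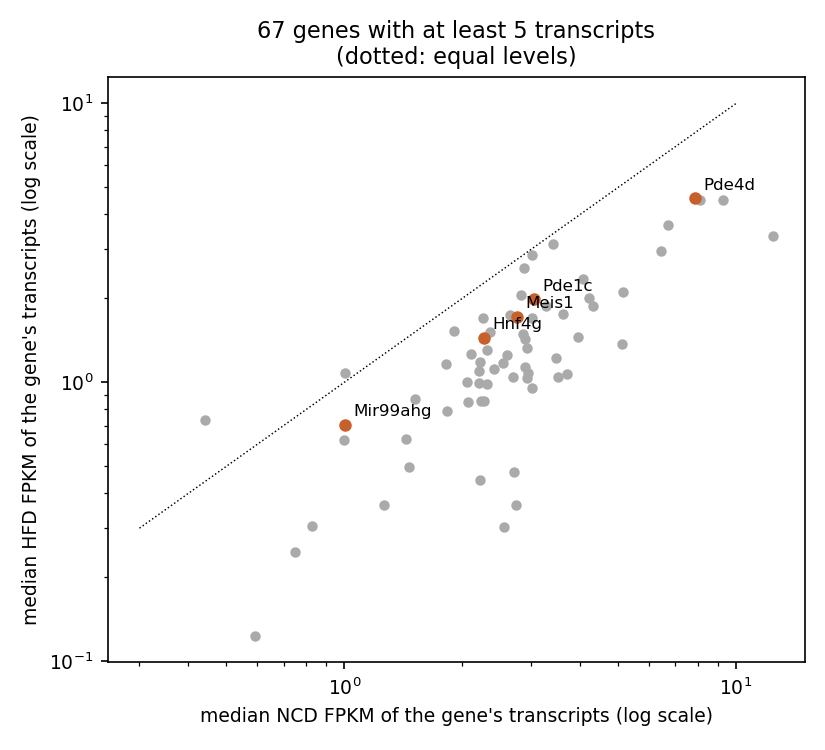
Median HFD FPKM against median NCD FPKM of the transcripts in each of the 67 genes with at least 5 transcripts, both on log scales, with Pde4d, Pde1c and the 3 genes of closest median log2 ratio marked. Pde4d is the highest point on the HFD axis, at 4.58 FPKM.

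The rest of the cAMP pathway gives the setting of these values. Of 66 other listed genes, 11 held 18 transcripts. None of the 10 adenylyl cyclase genes, which make cyclic AMP, held one, and Pde4d was the only one of the 4 Pde4 genes that did. In the list 16 of 18 transcripts were lower in HFD, where 80% of all transcripts were. At least 2-fold lower were 6 of the 18, where 41.9% of all transcripts were, and 0 were at least 2-fold higher, where 6.27% were. The median was -0.74, close to that of all transcripts (-0.82). Of the 18, however, 17 were intronic. Intronic transcripts of protein-coding genes had a lower median, -1.003, with 87.1% lower in HFD and 50.1% at least 2-fold lower. The highest of the 18 in NCD, in Prkar1b, was at 11.17 FPKM, about level with the lowest short Pde4d member (11.23). In HFD it was at 9.93 FPKM, above every Pde4d member (highest 8.68).

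Other phosphodiesterase genes held 11 transcripts in 6 genes, with a median log2 ratio of -0.92. Of these 11, 9 were lower in HFD, where 80% of all transcripts and 87.1% of intronic ones were. Pde1c, a calcium- and calmodulin-activated phosphodiesterase gene, was the most like Pde4d in number, with 6 intronic transcripts. All 6 were lower in HFD (median -0.66, range -1.55 to -0.22), as most intronic transcripts were. The Pde1c transcript of highest level had 7.22 FPKM in NCD against 2.40 in HFD. The transcript in Pde3b, which encodes an insulin-regulated phosphodiesterase, was at 5.21 and 2.32 FPKM (log2 ratio -1.13). The one in Pde3a, its close relative, was at 1.48 and 1.74 FPKM (0.22). In Pde7a, another cAMP-specific enzyme gene, the values were 4.22 and 1.83 FPKM (-1.16). The IBMX-insensitive pair Pde8a and Pde8b differed in direction, with Pde8a at 1.11 and 1.21 FPKM (0.12) and Pde8b at 5.98 and 2.71 (-1.11). By the locus numbering, both of these transcripts lay on the strand opposite to their gene, and that in Pde8a touched an exon.

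Among the effectors of cyclic AMP, 7 transcripts lay in 5 genes and all were lower in HFD (median -0.63), where 87.1% of intronic transcripts were. At least 2-fold lower was 1 of the 7, where 50.1% of intronic transcripts were. The transcripts at the listed genes Rapgef3 and Rapgef4 are not among the 7, since the overlap rule placed them under opposite-strand genes. Prkar1b, which encodes a regulatory subunit of protein kinase A, held the highest, with 11.2 FPKM in NCD against 9.93 in HFD (log2 ratio -0.17). The transcript in Creb1, the gene of the cAMP response element binding protein, was at 6.37 and 4.07 FPKM (-0.63). In Crem, the gene of its relative, the higher of 2 was at 2.20 and 1.10 FPKM (-0.94). In Akap10, a protein kinase A anchoring gene, the higher of 2 was at 2.28 and 1.49 (-0.58), and in Pkig, a protein kinase A inhibitor gene, the transcript was at 2.17 and 1.16 (-0.85). As for Pde4d, these values describe lncRNA models in the genes and not their messenger RNA.

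**Figure D5:**
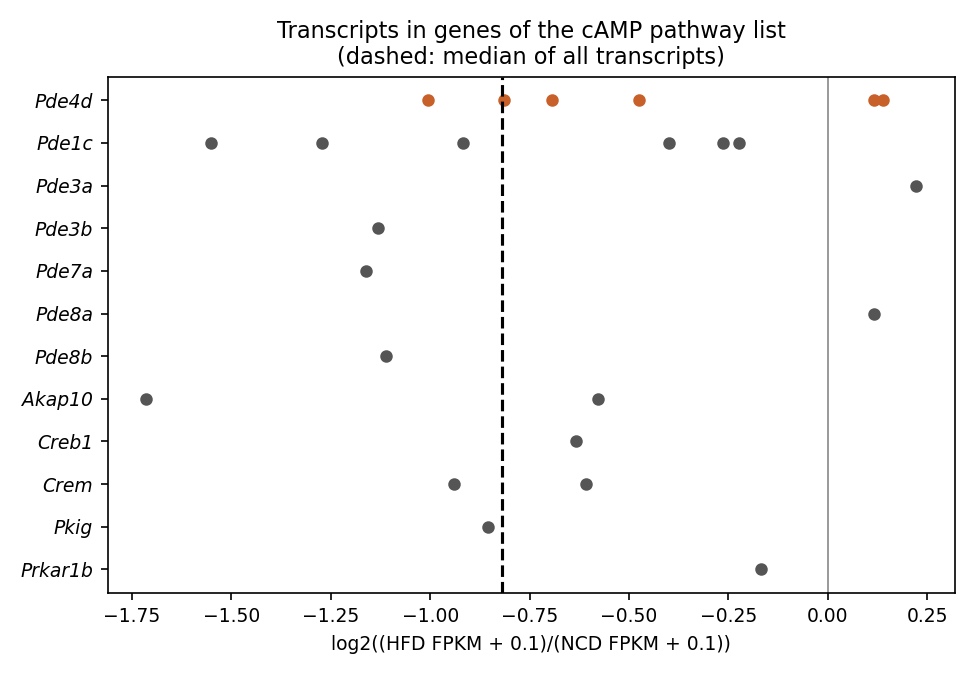
Log2 ratio of HFD over NCD (with 0.1 added to each FPKM) of each transcript in Pde4d (orange) and in the other genes of the cAMP pathway list (grey), 1 point per transcript, with the median of all transcripts dashed. 2 Pde4d transcripts and those in Pde3a and Pde8a lie above 0.

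No table entry lay near either end of Pde4d. The nearest upstream, 285 kb before the gene start, was an intronic transcript of the DNA repair gene Ercc8, with 2.55 FPKM in NCD against 0.279 in HFD (log2 ratio -2.81). The nearest downstream, 656 kb after the gene end, lay outside genes at 2.49 and 5.52 FPKM (1.12). The 149 other transcripts of chromosome 13 had a median log2 ratio of -0.94. The ratios of the Pde4d members lay between those of the nearest entries, which are so far apart that this says little about position.

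Which cells of the islet gave the Pde4d signal cannot be read from this table. Of 40 marker genes of beta, alpha, delta, PP, acinar, duct, endothelial, stromal and immune cells, 1, on the duct list, held a transcript. The table holds lncRNA models and does not measure messenger RNA levels. A marker gene without a transcript therefore does not show that its cells were absent. In whole islets, fewer cells of a type and less RNA per cell cannot be told apart.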

How the data were processed

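Per the labels, islet total RNA was made into Illumina TruSeq libraries, 3 per diet. The deposited FPKM values, 1 column per diet group per the file headers, were used as they stand. GRCm38 and mm10 are the builds in the submitters' processing notes. For the aligner, the assembler, the quantifier and the way the authors combined libraries, the entry is: not given in the sources used here. Intervals were placed on GENCODE M21 (GRCm38) by largest overlap, ties going to the shorter gene. That puts 1 transcript each of Rapgef3 and Rapgef4 under their opposite-strand genes. No filter on low values was used. Fragment totals were fitted to values below 8 fragments in intervals of 300 to 700 bases, with normally distributed fragment lengths. In the part of the transcripts left out of the fit, NCD values were within 0.15 of a whole number in 60 of 78 cases (76.9%) and HFD values in 147 of 148 (99.3%), against 30% for evenly spread values. The fit used Python 3.11.15, numpy 2.4.6 and scipy 1.17.1. Its check on simulated data took each column as a single pool of fragments, so it does not test that assumption.

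The members and lists were chosen with earlier results of these data known. Named are all members, each list gene with its highest transcript, and the 3 genes of at least 5 transcripts with the closest median. The length classes, the strand reading and the genes of at least 1 Mb were chosen after the values were seen. No model across libraries could be run.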

Additional observations from a re-analysis of the deposited data

How the results depend on the processing

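No paired analysis was possible because each diet has a single deposited column, which also means that leaving out a library could not be run. The Pde4d median log2 ratio, -0.58 as reported, was -0.59 with a pseudocount of 0.01, -0.49 with 1, -0.47 with intervals of at least 400 bases only and -0.62 for summed FPKM. It turned to 0.24 after median centring and 0.30 after quantile normalization. The cAMP list median, -0.74 as reported, was -0.78, -0.55 and -0.62 under the first 3 of these and turned to 0.075 and 0.092 under the last 2. The count of members at least 2-fold lower in HFD went from 1 to 0 with a pseudocount of 1, after centring, after quantile normalization and under a 4-fold rule. It was also 0 at 400 bases or more, since the member at 741 kb, which is the 1 counted, spans 394 bases and drops out. The count at least 2-fold higher was 0 under all settings run. Requiring values above 0 in both groups, or 1 FPKM in either, changed none of these 4 results, and neither did any overlap with Pde4d or 1 transcript per locus for the 3 that concern the gene. Of the 6 members, 3 changed sign under centring (711, 779 and 1324 kb) and 3 under quantile normalization, and 0 under either pseudocount. The median of all transcripts, -0.82 as reported, was -0.87 with a pseudocount of 0.01 and -0.55 with 1. With 1, the Pde4d median thus stood closer to it, and fewer members lay above it.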
